A study of Mus musculus with 4 samples.

Results

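Integrins of tubular epithelial cells were measured as transcripts: the genes of 10 subunits, Itgb6, Itgb8, Itgav, Itgb5, Itgb1, Itga3, Itga6, Itgb4, Itga2 and Itga5. They were chosen by name, as the subunits of tubular epithelium that activate latent TGF-beta (Itgb6 and Itgb8) and the laminin, collagen and fibronectin receptors they were set against. The choice by name used no threshold on these values, but it was made with earlier results of these data known. They are 10 of the 29875 genes with a probe on the array and were read by 14 of its 39429 transcript probes. For 9 of the 10 genes a probe was well above background, and Itgb8 had none.

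The study hybridised total RNA of mouse primary kidney tubular cells, grown in a commercial renal growth medium, to 4 one-colour microarrays. Cells of SerpinB2-/- mice (2 samples) were set against cells of wild type mice (2 samples). SerpinB2 is plasminogen activator inhibitor type 2, a serine protease inhibitor found mostly inside cells. All donors were 8 week old males on the B6.J background, and every culture, wild type included, received the phorbol ester PMA, an activator of protein kinase C, at 100 ng/ml. Untreated cells were not analysed here, so all differences are between genotypes under PMA. The labels give neither the part of Serpinb2 that was deleted nor how many mice stood behind a culture, and the p-values below measure only the spread between these samples, which may be technical.

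Values are given as scaled signal, the array intensity brought to a common 75th percentile of 2003 units, in which a change between genotypes can be read for each probe but levels of different probes cannot be compared. A gene was called changed where limma's adjusted p, over 18392 genes, was under 0.05. Serpinb2 had a scaled signal of 5.47 and 7.39 in the SerpinB2-/- samples, not well above background, against 3207 and 3276 in the wild type samples, at least 139.7-fold lower (adjusted p = 0.000689). Of 17 markers listed for tubular cells, 14 were measured. The epithelial markers Cdh1 and Epcam and the proximal tubule factor Hnf4a were well above background. The collecting duct marker Aqp2 was also among the 14 measured. Umod and Slc12a1 of the thick ascending limb and Slc12a3 of the distal convoluted tubule were not well above background. Measured too were 13 of 14 leukocyte, 10 of 12 endothelial and 9 of 13 urothelial and squamous markers. Detection by itself therefore cannot settle the label of tubular cells. All 4 arrays lay on 1 slide, with the SerpinB2-/- samples at positions 3 and 4 and the wild type samples at positions 1 and 2, so position and genotype cannot be told apart. Between arrays of the same genotype the median absolute log2 difference of a gene was 0.08 for either genotype, and between arrays of different genotype it was 0.14 to 0.16.

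Integrins are cell surface receptors made of an alpha and a beta chain, and the pair decides which matrix protein is bound. The alpha v chain pairs with beta 6 or beta 8 to bind the RGD motif in the propeptide that keeps TGF-beta latent, which releases or exposes the active cytokine, and in kidney the beta 6 chain is known as an epithelial subunit that is sparse in healthy tubules and induced in injured ones. The alpha 3 beta 1, alpha 6 beta 1 and alpha 6 beta 4 pairs hold tubular cells to the laminins of the basement membrane, alpha 2 beta 1 binds collagens, and alpha 5 beta 1 binds fibronectin.

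Itgb6 and Itgb1 were each read by a pair of 60-base probes that lie far apart in the same transcript, and their sequences are shown because both probes of Itgb6 passed the test while, of the pair for Itgb1, the dimmer did and the brighter did not. All 4 are printed 5′ to 3′ in the sense of the transcript with no base singled out in capitals, with mm9 positions from the array files. The brighter Itgb6 probe began at base 2445 of the transcript and covered chr2:60438632-60443247 on the minus strand, a span of 4616 bases, so it crosses at least 1 intron. The dimmer Itgb6 probe began at base 838 and lies at chr2:60492788-60492847 on the same strand. The brighter Itgb1 probe began at base 2631 and covered chr8:131250081-131255976 on the plus strand, a span of 5896 bases that also holds an intron. The dimmer Itgb1 probe began at base 1840 and lies at chr8:131246349-131246408. Each of the 4 sequences had at least 1 of its 3 reading frames free of stop codons.
Itgb6, brighter probe: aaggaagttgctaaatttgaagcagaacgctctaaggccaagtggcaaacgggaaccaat
Itgb6, dimmer probe: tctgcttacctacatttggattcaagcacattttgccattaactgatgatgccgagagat
Itgb1, brighter probe: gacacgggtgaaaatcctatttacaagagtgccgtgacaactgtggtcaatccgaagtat
Itgb1, dimmer probe: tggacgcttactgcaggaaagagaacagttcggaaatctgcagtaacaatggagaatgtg

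Among the measured subunits, 4 of 9 had lower transcript signal in SerpinB2-/- cells than in wild type cells: Itgb6, Itgb4, Itga3 and Itga6. By limma 0 of the 9 were higher (1, Itga5, at an unadjusted p under 0.05), and 5 did not pass the test: Itga2, Itga5, Itgav, Itgb1 and Itgb5. Over all 18392 genes, 15.7% were called, 9.67% lower and 6.01% higher. The median log2 change of the 9 subunits was -0.31, against 0.01 over all genes, and the changes ran from -0.83 for Itgb6 to 0.29 for Itga5. In 6 subunits both SerpinB2-/- samples lay below both wild type samples, in 2 they lay above, and in Itgb5 the groups overlapped, while 31.9% of all genes were lower and 32.5% higher without overlap, 64.3% in all. In bulk RNA, fewer cells of a type and less RNA per cell cannot be told apart, and of the 14 measured markers of tubular epithelium 5 were lower and 1 was higher in SerpinB2-/- cells (3 lower and 2 higher with median scaling). The median log2 change of these 14 markers was -0.22. Their summed signal was 451775 and 474660 in SerpinB2-/- samples, against 569478 and 569950 in wild type samples. The part of this difference in the integrin changes was not tested.

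**Figure D1:**
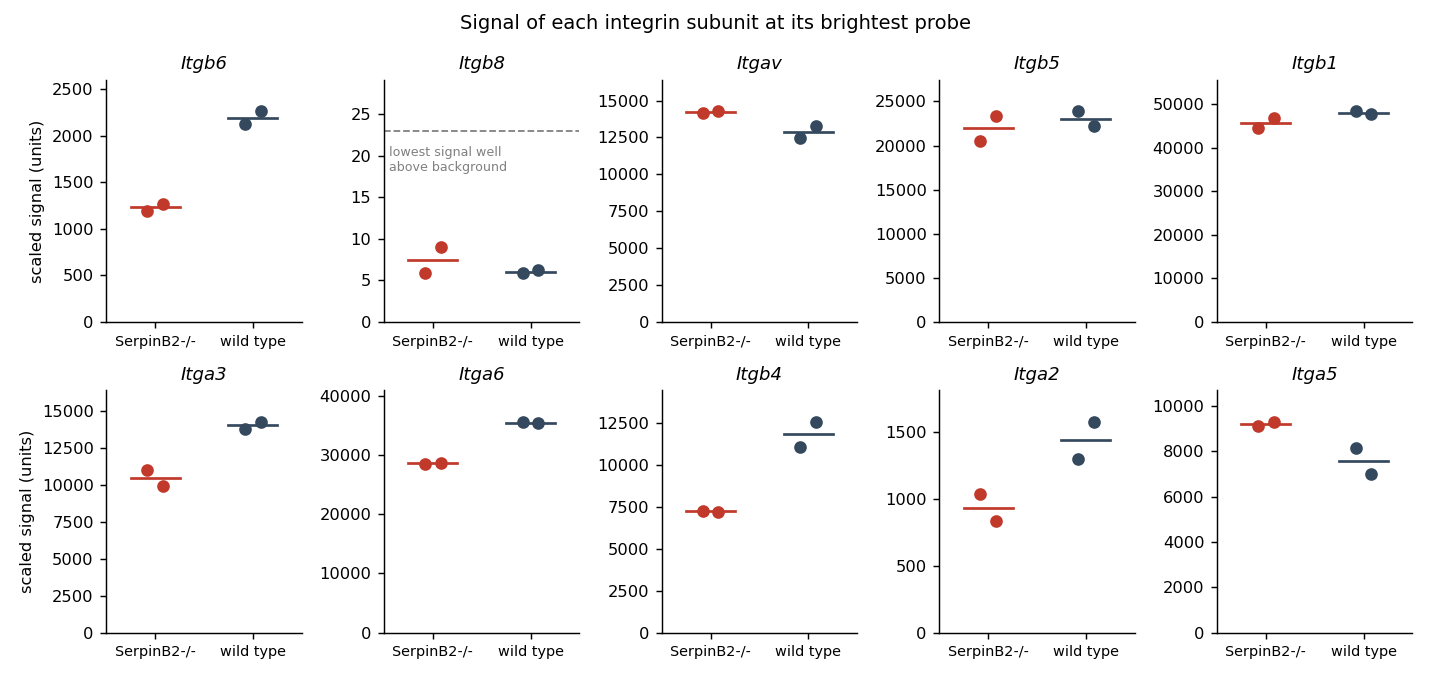
Scaled signal (units, linear axis from 0) of each of the 10 integrin subunits at its brightest probe, with 2 SerpinB2-/- samples left of 2 wild type samples, points for samples and lines for their means. Itgb6 and Itgb4 show the widest gaps, Itgb5 overlaps, and all 4 Itgb8 points lie under the dashed line, the lowest signal that was well above background.

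Itgb6, the beta chain of the epithelial TGF-beta-activating integrin, had the largest fall of the subunits. At its brighter probe the scaled signal was 1195 and 1266 in the SerpinB2-/- samples, against 2122 and 2259 in the wild type samples. Both SerpinB2-/- samples were low, and the nearest samples of the 2 genotypes were still 1.68-fold apart. The log2 change was -0.83 ± 0.07 (SE, n = 2 each), with a 95% interval of -1.01 to -0.66 and an adjusted p of 0.00755, so that SerpinB2-/- cells held 0.562 of the wild type signal. At the dimmer probe the signal was 67.6 and 69.5 in SerpinB2-/- samples, against 132 and 125 in wild type samples, again without overlap. Its log2 change of -0.91 ± 0.06 (adjusted p = 0.00677 with every probe tested by itself) and that of the brighter probe each lay inside the other's 95% interval, although the probes read different stretches of the transcript.

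Itgb8, the beta chain of the other TGF-beta-activating integrin, could not be compared. Its only probe, at chr12:120401278-120401337, had a signal of 5.95 and 9.06 in SerpinB2-/- samples and 5.92 and 6.22 in wild type samples. No spot used, on any of the 4 arrays, was well above background, and the lowest signals that were had values of 23.0 to 24.8. The contrast of the TGF-beta-activating chains with the matrix receptors therefore rests on Itgb6.

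Itgav encodes the alpha chain that both activating beta chains, and beta 5, pair with. Its brighter probe (chr2:83646133-83646192) had a signal of 14177 and 14267 in SerpinB2-/- samples, against 12452 and 13266 in wild type samples, a log2 change of 0.15 ± 0.06 (SE, n = 2 each, adjusted p = 0.174). Its dimmer probe (chr2:83643905-83643964) had 4791 and 4379.7 in SerpinB2-/- samples, against 5721 and 5699 in wild type samples. The groups did not overlap at either probe, but they lay in opposite orders. The dimmer probe's log2 change was -0.32 ± 0.07, with an adjusted p of 0.0430 in the fit of every probe. The brighter probe began at base 6113 of the transcript and the dimmer one at base 3885, and the direction of Itgav is unsettled by these arrays.

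Itgb5, the beta chain of the vitronectin receptor, had 20548 and 23384 in SerpinB2-/- samples and 23876 and 22194 in wild type samples. The genotypes overlapped, and the 95% interval of the log2 change ran from -0.30 to 0.16 around -0.07 (adjusted p = 0.608). A change of Itgb5 was not detectable with these arrays.

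Itgb1 is the beta chain that the collagen, fibronectin and part of the laminin receptors have in common. Its brighter probe had 44459 and 46815 in SerpinB2-/- samples, against 48285 and 47748 in wild type samples. The samples did not overlap, but the nearest were only 1.02-fold apart, and the log2 change of -0.07 ± 0.06 did not pass the test (adjusted p = 0.433, 95% interval -0.23 to 0.08). At the dimmer probe the signal was 12662 and 12600.3 in SerpinB2-/- samples, against 16948 and 15181 in wild type samples. There the log2 change was -0.34 ± 0.08, with an adjusted p of 0.0429 when every probe was tested. The interval of the dimmer probe, -0.54 to -0.15, and that of the brighter probe overlap, and the difference between the probes was not tested.

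Itgb4, Itga3 and Itga6, the chains particular to laminin receptors, were each lower in SerpinB2-/- cells at their brightest probe. Itgb4, which pairs only with alpha 6 and anchors hemidesmosomes to keratin filaments, had 7259 and 7222 in SerpinB2-/- samples, against 11083 and 12564 in wild type samples. The SerpinB2-/- samples were nearly equal and lay well below both wild type samples. The log2 change was -0.70 ± 0.08 (SE, n = 2 each, 95% interval -0.91 to -0.50, adjusted p = 0.0114), 0.614 of the wild type signal, at a probe at chr11:115869666-115869725. Its interval overlaps that of Itgb6, and the difference between these 2 changes was not tested.

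Itga3, the alpha chain of a main laminin receptor of kidney epithelia, had 11003 and 9931 in SerpinB2-/- samples, against 13821 and 14263 in wild type samples (probe at chr11:94906334-94906393). The genotypes did not overlap, and the log2 change was -0.43 ± 0.07 (adjusted p = 0.0272, 95% interval -0.62 to -0.23). Itga6, which pairs with beta 4 or beta 1, had 28526 and 28643 in SerpinB2-/- samples, against 35534 and 35355 in wild type samples (chr2:71694756-71694815). Samples of a genotype were nearly identical, and the log2 change was -0.31 ± 0.05 (adjusted p = 0.0279). At its dimmer probe (chr2:71690633-71690692), designed on a separate Ensembl transcript, Itga6 had 23739 and 23121 in SerpinB2-/- samples, against 25711 and 25545 in wild type samples, a log2 change of -0.13 ± 0.06 that did not pass the test (adjusted p = 0.185).
The calls of Itga3 and Itga6 depended on the arrays used. Without wild type replicate 1, wild type replicate 2 or SerpinB2-/- replicate 2, Itga3 had an adjusted p of 0.0929, 0.110 and 0.0847, and without SerpinB2-/- replicate 1 it passed (0.0381). Itga6 lost its call whichever array was left out, with an adjusted p of up to 0.117, while Itgb6 and Itgb4 stayed past the threshold in all 4 cases.

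Itga2, the alpha chain of the collagen receptor, had 1037 and 829.8 in SerpinB2-/- samples, against 1297 and 1571 in wild type samples (chr13:115626714-115626773). The genotypes did not overlap, yet the samples of each differed more than for any other measured subunit, by up to 0.32 on the log2 scale. The log2 change of -0.62 ± 0.15 (95% interval -1.002 to -0.24) had an adjusted p of 0.0534, just outside the threshold. The adjusted p was 0.0398 without SerpinB2-/- replicate 1, 0.125 without SerpinB2-/- replicate 2, and, leaving out wild type replicate 1 or 2 in place of these, 0.0806 or 0.163, with log2 changes of -0.78 to -0.46.

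Itga5, the alpha chain of the fibronectin receptor, was the subunit with the highest change. It had 9116 and 9289.5 in SerpinB2-/- samples, against 8146 and 6998 in wild type samples (chr15:103175022-103175081). Both SerpinB2-/- samples lay above both wild type samples, and the log2 change of 0.29 ± 0.09 (95% interval 0.05 to 0.52) did not pass the test over all genes (adjusted p = 0.0980).

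**Figure D2:**
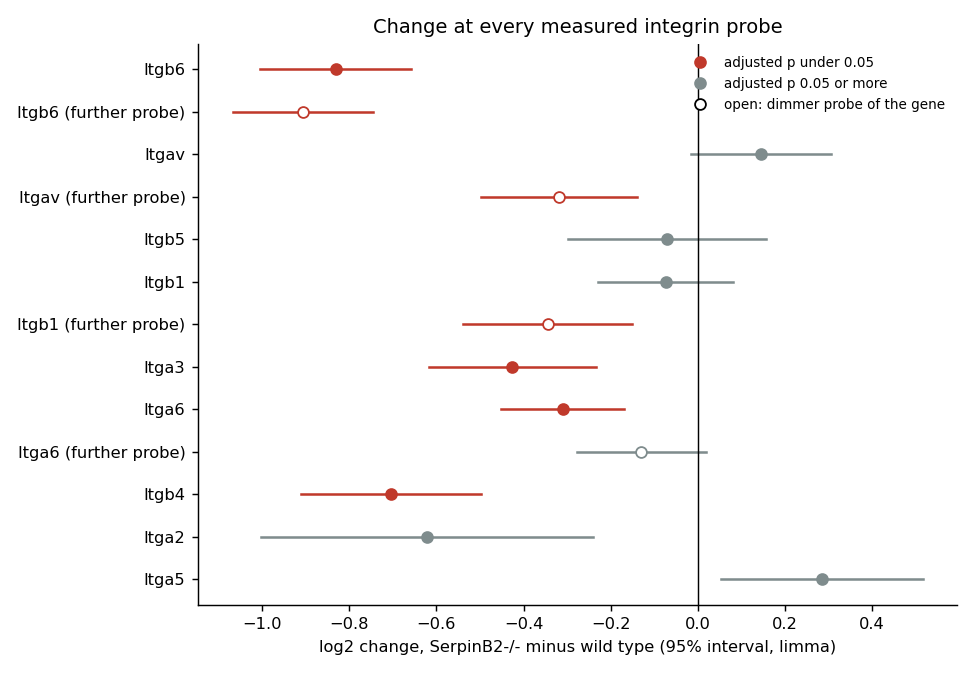
Log2 change, SerpinB2-/- minus wild type, at each of the 13 measured integrin probes, with 95% intervals from limma (2 arrays each). Filled points are the brightest probe of a gene and open points its dimmer probe, and red marks an adjusted p under 0.05; the 2 Itgb6 probes lie together, while those of Itgav lie on opposite sides of 0.

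With every probe tested by itself, 8 of the 13 measured integrin probes were lower and 0 were higher by limma (1 higher at an unadjusted p under 0.05), against 10.2% lower and 5.79% higher of all 24174 probes tested. The 8 were both Itgb6 probes, the Itgb4, Itga2 and Itga3 probes, the brighter Itga6 probe and the dimmer Itgav and Itgb1 probes. The Itga2 probe passed here with an adjusted p of 0.0499. Replicate spots of a probe within an array differed by an SD of 0.01 to 0.19 on the log2 scale.

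The other integrin subunits did not share 1 direction. Of 17 listed, 12 were measured, and 2 were higher, 2 were lower and 8 did not pass the test, with a median log2 change of -0.10. With arrays scaled on their median, 3 were higher and 1 was lower. Itga7, the alpha chain of the muscle laminin receptor, had 4798 and 4768 in SerpinB2-/- samples, against 3537 and 3536 in wild type samples, a log2 change of 0.44 ± 0.05 (adjusted p = 0.0139). Itga11, the alpha chain of a collagen receptor of fibroblasts, had 2954 and 3393 in SerpinB2-/- samples, against 2171 and 1643 in wild type samples, a log2 change of 0.75 ± 0.15 (adjusted p = 0.0402).
The 2 lower subunits are chains of leukocyte integrins. Itgb2, the common beta chain of the CD18 integrins, had 288 and 232 in SerpinB2-/- samples, against 372 and 389.8 in wild type samples (log2 change -0.56 ± 0.12, adjusted p = 0.0410). Itgb7, the beta chain of gut-homing lymphocyte integrins, had 24.7 and 28.0 in SerpinB2-/- samples, where neither array was well above background, against 64.5 and 55.9 in wild type samples, and was at least 2.28-fold lower (adjusted p = 0.00791). Of the leukocyte markers, 13 of 14 were measured, 9 were lower and 0 higher by limma (0 at an unadjusted p under 0.05), with a median log2 change of -0.66 and a summed signal of 12867 and 11027 in SerpinB2-/- samples, against 18240 and 17124 in wild type samples. The part of these cells in the integrin values was not tested.
Itgam, the alpha chain of the macrophage integrin CD11b, had a log2 change of -0.09 at its brightest probe (adjusted p = 0.440). In the fit of every probe, its dimmer probes had -0.16 (adjusted p = 0.160) and -0.81 (adjusted p = 0.00858). The probes share a direction but differ in size, and the difference between them was not tested.
Itga7 lost its call without either wild type array (adjusted p up to 0.0681). Itga11 lost it without any array but wild type replicate 1 (up to 0.109), and Itgb2 without any array but SerpinB2-/- replicate 1 (up to 0.139). Itgb7 passed in all 4 cases.

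The laminin chains, ligands of the alpha 3 and alpha 6 integrins, were measured for 11 of 11 genes: by limma 0 were higher (1 at an unadjusted p under 0.05), 4 were lower and 7 did not pass the test, with a median log2 change of -0.20 (3 lower and 1 higher with median scaling). Lama3 and Lamb3 encode chains of laminin-332, the ligand that alpha 6 beta 4 binds at hemidesmosomes. Lama3 had 1777 and 1690.0 in SerpinB2-/- samples, against 3643 and 4387 in wild type samples, a log2 change of -1.21 ± 0.10 (adjusted p = 0.00791). Lamb3 had 14959 and 13503 in SerpinB2-/- samples, against 20266 and 23793 in wild type samples, a log2 change of -0.63 ± 0.10 (adjusted p = 0.0249). In each of these genes both SerpinB2-/- samples lay below both wild type samples. Lama5, an alpha chain of the mature tubular basement membrane, also passed the test, with a log2 change of -0.25 ± 0.05 (adjusted p = 0.0456).
Lama5 lost its call whichever array was left out (adjusted p up to 0.167), and Lamb3 without wild type replicate 2 or SerpinB2-/- replicate 2 (up to 0.0757), while Lama3 passed in all 4 cases.

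No partner of hemidesmosomes or tetraspanin complexes passed the test at its brightest probe. By limma 0 of 9 measured were called, 0 also at an unadjusted p under 0.05, and the median log2 change was -0.08. With the detected probes of each gene averaged, 1 of the 9 was lower. The brightest were Cd81, a tetraspanin, with a log2 change of -0.12 (adjusted p = 0.311), and Plec, the linker of beta 4 to keratins, with -0.11 (adjusted p = 0.502). Among the talins, kindlins and adhesion adaptors, 22 of 22 were measured, 2 were higher, 2 were lower and 18 did not pass. With arrays scaled on their median, 6 of the 22 were higher and 1 was lower, so the even split depends on the scaling. Fermt3, the kindlin of blood cells, was lower by a log2 change of -0.80 ± 0.06 (adjusted p = 0.00733), as was the focal adhesion scaffold Pxn, with -0.38 (adjusted p = 0.0428). The actin linker Vcl (0.30, adjusted p = 0.0345) and Fermt2, the broadly expressed kindlin (0.27, adjusted p = 0.0477), were higher, but a dimmer probe of each did not pass (Vcl -0.16, Fermt2 0.07). Fermt3 kept its call whichever array was left out. Vcl and Fermt2 kept it in no such fit (adjusted p up to 0.139 and 0.185), and Pxn only without SerpinB2-/- replicate 2 (up to 0.149 otherwise).

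The ligands of the RGD-binding and collagen-binding integrins went both ways. Of 11 RGD and related matrix proteins, 10 were measured, with 3 higher, 1 lower and a median of 0.06 (4 higher and 1 lower with median scaling). Npnt, nephronectin, had a log2 change of -0.61 ± 0.10 (adjusted p = 0.0256) and its dimmer probe -0.33, while Edil3 (0.50, adjusted p = 0.0280), the microfibril protein Fbn1 (0.43, adjusted p = 0.0285) and osteopontin, Spp1 (0.32, adjusted p = 0.0479), were higher. Of 9 collagen genes, 1 was higher and 2 were lower, with a median of -0.15 (3 higher and 2 lower with median scaling). Col3a1, a fibrillar chain of stroma, was higher by 0.81 ± 0.17 on the log2 scale (adjusted p = 0.0414), while the basement membrane chains Col4a3 (-0.42, adjusted p = 0.0300) and Col4a4 (-0.39, adjusted p = 0.0211) were lower.
Col3a1 lost its call without either wild type array (adjusted p up to 0.138). Npnt, Fbn1 and Edil3 kept it only without SerpinB2-/- replicate 1 (up to 0.0984, 0.111 and 0.106 otherwise), and Spp1, Col4a3 and Col4a4 lost it whichever array was left out (up to 0.165, 0.1 and 0.0948).
Of the fibroblast and pericyte markers, 10 of 12 were measured, and 3 were higher and 0 lower by limma (1 lower at an unadjusted p under 0.05). With median scaling 6 were higher and 0 lower. Their summed signal was 211209 and 254718 in SerpinB2-/- samples, against 206522 and 160746 in wild type samples. Lum and Rgs5 were not well above background, and the part of such cells in the matrix values was not tested.

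The genes listed as latent TGF-beta and its anchors were measured for 9 of 9. By limma 1 was higher, 0 were lower (1 at an unadjusted p under 0.05) and 8 did not pass, with a median log2 change of 0.08. Tgfb3, whose propeptide carries the RGD motif bound by alpha v beta 6, had 16801 and 17874 in SerpinB2-/- samples, against 12910 and 11197 in wild type samples, a log2 change of 0.53 ± 0.09 (adjusted p = 0.0266). Ltbp2, listed here by its family name (0.05, adjusted p = 0.568), and the latent TGF-beta anchor Lrrc32 (0.08, adjusted p = 0.750) did not pass. Of the TGF-beta receptors and response genes, 14 of 15 were measured, 1 was higher, 2 were lower and 11 did not pass, and the median was 0.02 (3 higher and 2 lower with median scaling). Tgfbi, a TGF-beta induced matrix protein, had 380.5 and 382 in SerpinB2-/- samples, against 656 and 633 in wild type samples, a log2 change of -0.76 ± 0.06 (adjusted p = 0.00706). Smurf1, a ubiquitin ligase that limits the pathway, was lower (-0.45, adjusted p = 0.0176), and the co-receptor Tgfbr3 was higher (0.50, adjusted p = 0.0145). Tgfbi kept its call whichever array was left out. Tgfb3 kept it only without wild type replicate 1 (adjusted p up to 0.0826 otherwise), Smurf1 only without SerpinB2-/- replicate 1 (up to 0.0788), and Tgfbr3 lost it without either wild type array (up to 0.0689).

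**Figure D3:**
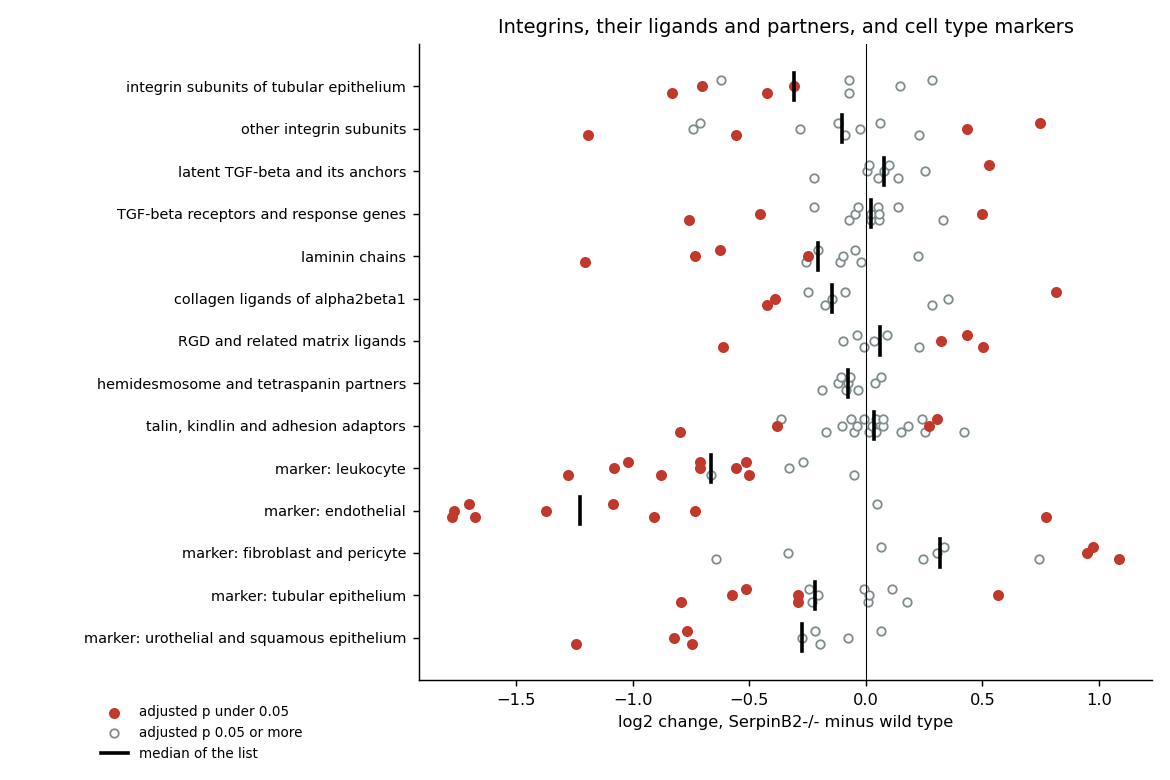
Log2 change, SerpinB2-/- minus wild type, of the measured genes of each list, with a black bar at the list's median and red points for an adjusted p under 0.05. The 9 integrin subunits of tubular epithelium have a median of -0.31 and the laminin chains -0.20, beside 0.01 over all genes. The markers of tubular epithelium have -0.22, those of urothelial and squamous epithelium -0.27, and those of fibroblasts and pericytes 0.32. Genes dim in 1 genotype are drawn at their fitted change.

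Markers of other cells differed between the genotypes beside these integrin values. Of the endothelial markers, 10 of 12 were measured, 8 were lower and 1 was higher, with a median log2 change of -1.23. Plvap (-1.78, adjusted p = 0.0157) and Robo4 (-1.77, adjusted p = 0.0138) were lower, and their list's summed signal was 9291 and 10688 in SerpinB2-/- samples, against 11605 and 11503 in wild type samples. Tek and Erg were not well above background. Of the urothelial and squamous markers, 9 of 13 were measured, and 4 were lower and 0 higher by limma (0 at an unadjusted p under 0.05). Their median log2 change was -0.27, and their summed signal was 87596 and 86810.3 in SerpinB2-/- samples, against 116099 and 125987 in wild type samples. Of the uroplakins, which mark urothelium, Upk1a was among the 9 measured genes, and Upk1b, Upk2, Upk3a and Upk3b were not well above background. The involucrin gene Ivl (-1.24) and the keratins Krt7 (-0.82) and Krt19 (-0.77) were lower. Within tubular epithelium, Cdh1, or E-cadherin, had 6592 and 6908 in SerpinB2-/- samples, against 11358 and 12054 in wild type samples, a log2 change of -0.79 ± 0.06 (adjusted p = 0.00757). Epcam was lower as well (-0.58, adjusted p = 0.0374), and Hnf4a was higher (0.57, adjusted p = 0.0194). Cdh1, Ivl, Krt7 and Krt19 kept their calls whichever array was left out. Plvap lost its call without wild type replicate 2 (up to 0.0612), Robo4 without either wild type array (up to 0.0576), Epcam without any array but wild type replicate 1 (up to 0.101), and Hnf4a without replicate 2 of either genotype (up to 0.0747). The part of these cell types in the integrin changes was not tested.

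Promoters of the subunits were read because PMA acts on genes with AP-1 sites and because Itgb6 is known as a target of TGF-beta signalling. RefSeq windows of 300 bases around a transcription start (GRCm38.p6) were held for 8 of the 10 genes, 10 windows in all. A loose form of the AP-1 motif, TGANTCA with any base at N, was searched on both strands. It was in 1 of the 10 windows, against 7.81% of all 32851 windows. The SMAD box CAGACA, also searched on both strands, was in 4 of 10, those of Itga2, Itga3, Itgb1 and Itgb8, against 21.0% of all. The single match to TGANTCA lay in an Itga3 window at chr11:95069149-95069448 on the minus strand, 12 bases after the start, and is shown in capitals. It reads TGAATCA, with A at the position where the usual AP-1 site has C or G. The SMAD box of Itga3 lay in its other window, at chr11:95076665-95076964, which held no match to TGANTCA and is not shown. Neither of the 2 Itgb6 windows held a match to these letters, and the one at chr2:60722554-60722853 on the minus strand is shown for the subunit with the largest change. A match is a string of letters and not a bound site.
Itga3 promoter: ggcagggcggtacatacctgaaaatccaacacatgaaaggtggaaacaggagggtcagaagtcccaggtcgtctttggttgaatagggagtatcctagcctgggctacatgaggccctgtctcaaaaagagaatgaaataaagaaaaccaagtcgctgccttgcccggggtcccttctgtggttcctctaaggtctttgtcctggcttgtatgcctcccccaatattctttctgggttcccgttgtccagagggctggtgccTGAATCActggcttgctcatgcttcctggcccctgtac
Itgb6 promoter: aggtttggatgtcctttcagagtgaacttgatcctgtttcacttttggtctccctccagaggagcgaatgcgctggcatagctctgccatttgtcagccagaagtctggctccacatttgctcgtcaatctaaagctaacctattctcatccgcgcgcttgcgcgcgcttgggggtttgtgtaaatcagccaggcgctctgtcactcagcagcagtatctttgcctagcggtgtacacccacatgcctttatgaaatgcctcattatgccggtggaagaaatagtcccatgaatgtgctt

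**Figure D4:**
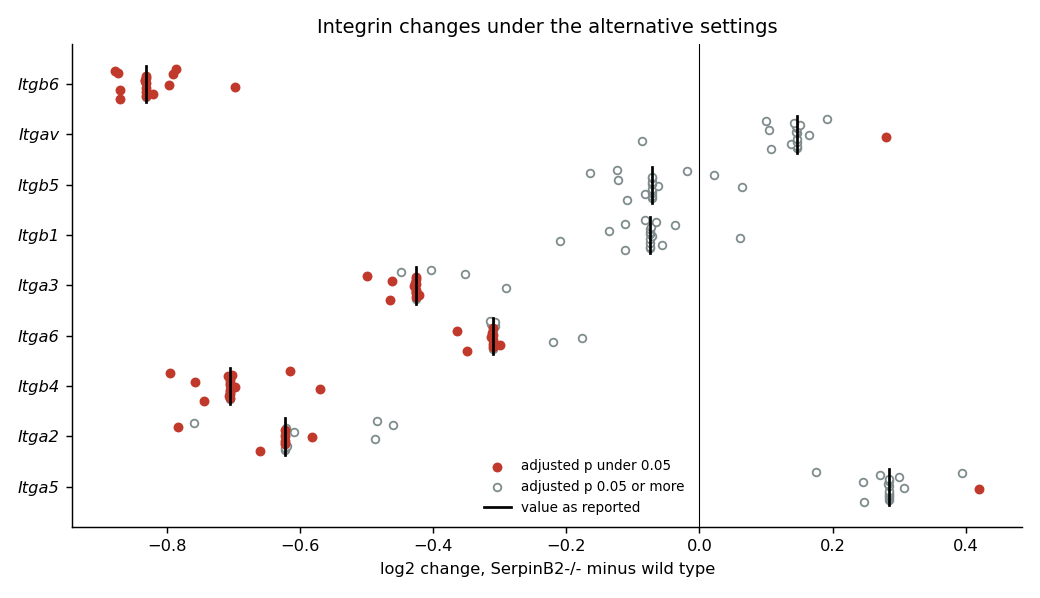
Log2 change, SerpinB2-/- minus wild type, of each measured integrin subunit under 18 alternative settings, with a black bar at the value as reported and red points for an adjusted p under 0.05. Itgb6 and Itgb4 passed in 17 of the 18, Itga3 in 13 and Itga6 in 10.

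Across these settings the lower signal of Itgb6 (log2 change -0.88 to -0.70) and Itgb4 (-0.80 to -0.57) kept its direction in all 18. Itga3 ran from -0.50 to -0.29 and Itga6 from -0.36 to -0.18, also with 1 direction throughout. The mean-variance trend, array weights and replicate block left each log2 change as reported, so no direction could turn there. The log2 changes of these subunits were also the same with the other detection filters and with every probe tested by itself. Scaling each array on its median moved the median change of all genes to 0.14, and with it Itga5 (0.42, adjusted p = 0.0295) and Itgav (0.28, adjusted p = 0.0331) passed as higher, while Itga3 (adjusted p = 0.0543) and Itga6 (adjusted p = 0.0819) did not pass.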

How the data were processed

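Total RNA (150 ng per sample, per the labels) was labelled with Cy3 and hybridised to 1-colour Agilent arrays. Per the file headers, the deposited intensity values were made by Agilent Feature Extraction 10.7.3.1, positions follow mm9, and the values were background-subtracted and detrended. From these, spots marked as outliers were left out, and the log2 intensity of a probe's remaining spots was averaged and each array's 75th percentile subtracted. A probe was used if over 50% of its spots were well above background on both arrays of at least 1 genotype, and each gene was represented by its brightest probe of this kind. For Serpinb2, not well above background on either SerpinB2-/- array, a lower bound of the fold is given. It was computed per array from the weakest signal still well above background. The SerpinB2-/- signals of Itgb7 lay above that level, so its fitted change is given. Symbols were updated through RefSeq accessions (28328 probes by accession, 3400 by current and 243 by older symbol).

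Genotypes were compared with limma 3.58.1 (R 4.3.3; lmFit and eBayes, no covariates), with Benjamini-Hochberg adjustment over 18392 genes. The procedure was tested on simulated data. Arrays give no depth, and their number limits the precision. A deposited table of the authors' values, intensity on a linear scale that puts the 75th percentile at 1500 and no value under 4, served as an alternative. On each array, 95.0 to 95.9% of its probes lay within 5% of the scanner signal times a constant factor. It is thus close to the main processing and a weak alternative. How the authors made it is not given in the sources used here.

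The members and all gene lists were chosen with earlier results of these data known. Named genes were Serpinb2, every listed subunit at each probe, other integrins past the threshold, and in each further list up to 4 genes past it with the largest absolute change, or the brightest where fewer than 2 passed (up to 3 for cell type markers). Some genes that this rule selects are not reported here. The alternatives changed background correction, scaling, filter, probe choice, variance model, outlier spots, pairing and the arrays used; averaging spots on the linear scale was chosen after seeing the data.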

Additional observations from a re-analysis of the deposited data

How the results depend on the processing

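With 4 arrays on 1 slide, a change under about the spread between arrays of a genotype was not detectable. The count of all genes called, 2884 as reported (1105 higher), was 5583 with median scaling (4338 higher), 3 when all probes were kept whether detected or not (1 higher, 2 lower), and 753 to 1579 without 1 array (209 to 497 higher, 536 to 1082 lower), where the lone array of a genotype is assumed to vary like those of the other. With a mean-variance trend 1738 genes were higher. The number of lower integrin subunits, 4 as reported, was 2 with median scaling (with 2 higher), 0 by limma with all probes kept (5 at an unadjusted p under 0.05), 8 probes with every probe tested and 2 to 4 without 1 array. Itgb6 and Itgb4 failed only with all probes kept (adjusted p 0.0609 and 0.0739). The median of the measured subunits was -0.18 with median scaling, -0.19 with all probes kept and -0.22 with probes averaged per gene. With the replicate number of the titles as a block, 2143 genes were called (689 higher) and 4 subunits were lower, with Itga2 gained (adjusted p 0.0461) and Itga6 lost (0.0765); the numbers gave a correlation of deviations of 0.26 from 2 pairs, so they were not taken to pair the samples. Directions turned for Itgav with probes averaged (-0.0859), for Itgb1 (0.0610), Itgb5 (0.0642), Cd81 (0.0136) and Plec (0.0298) with median scaling, and for Ltbp2 (-0.000698) with quantile normalization. They also turned when 1 array was left out for Itgb5 (-0.164 to 0.0227), Lrrc32 (-0.14 to 0.293) and Plec (-0.210 to 0.00026). None of these genes had passed the test. Of the 39 other genes past the threshold that the naming rule selected, 14 stayed past it without any 1 array and 6 passed in no such fit, and 36 passed with median scaling. The cause of these differences was not tested.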
